A study of Mus musculus with 9 samples.

Results

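The muscle miRNAs described here are the products of 9 precursors that the deposited files list under miRBase: mmu-mir-1a-1, mmu-mir-1a-2, mmu-mir-133a-1, mmu-mir-133a-2, mmu-mir-133b, mmu-mir-206, mmu-mir-208a, mmu-mir-208b and mmu-mir-499. They were chosen by name. They are 9 of 661 miRNA precursors with a read in any library, and after the loci of 1 miRNA were summed they are 7 of 577 miRNAs, among 912 small RNA features in all. Small RNA was sequenced from atrial appendages of C57BL/6 mice by PANDORA-seq, which treats RNA with AlkB, an enzyme that removes methyl groups, and with T4 polynucleotide kinase, which repairs RNA ends, before a gel fraction of 15 to 45 nucleotides is taken. The 9 libraries form 3 groups of 3: young mice of 5 months without curcumin, old mice of 18 months without curcumin, and mice of 18 months that took curcumin, a polyphenol of turmeric, at 100 mg/kg a day in skim milk from the age of 12 months. No transgene, deletion or disease model is named for any group, and the title of the series concerns curcumin, tRNA fragments and atrial fibrillation in the ageing atrium. Whether each library came from a separate mouse is not stated, so p-values measure the spread between these libraries.

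MicroRNAs are short RNAs that guide Argonaute proteins to messenger RNAs, which they find mainly through the seed, the bases near their 5′ end. miR-1 and miR-133 are made together from shared transcripts in heart and skeletal muscle, where they hold back genes of growth and of non-muscle fates. miR-206 belongs to the miR-1 family and is made beside miR-133b, above all in skeletal muscle. miR-208a, miR-208b and miR-499 lie inside myosin heavy chain genes and are known as a network that tunes which myosins a muscle fibre makes.

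RefSeq's table of mature miRNAs for GRCm38.p6 had an entry for 6 of the 9 precursors. The mature sequences of miR-206, miR-133b, miR-208a, miR-208b and miR-499 are printed 5′ to 3′ to show which members read the same target sites, with the seed (bases 2 to 8) in capitals.
mmu-miR-206-3p: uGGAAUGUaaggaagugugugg
mmu-miR-133b-3p: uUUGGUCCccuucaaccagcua
mmu-miR-208a-3p: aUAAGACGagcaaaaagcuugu
mmu-miR-208b-3p: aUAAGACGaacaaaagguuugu
mmu-miR-499-5p: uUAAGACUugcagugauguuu
miR-208a and miR-208b have the same seed and were identical at 19 of 22 positions (86.4%). Counted from the 5′ end, with the base of miR-208a first, they differ by G10A, A16G and C18U. The seed of miR-499 differs from that of miR-208a at its last base (G8U), and 12 of 21 positions were identical between them. The files count reads for each precursor and do not name the arm, and the mature sequences of miR-1a-3p and miR-133a-3p are not shown.

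The precursors lie in 5 places of the mouse genome (mm10, GENCODE M21). miR-1a-1 (chr2:180389048-180389124, plus strand) and miR-133a-2 (chr2:180398379-180398482, plus strand) are 9254 bases apart, within the RefSeq host transcript Mir1a-1hg. miR-1a-2 (chr18:10785481-10785552, minus strand) and miR-133a-1 (chr18:10782909-10782976, minus strand) are 2504 bases apart, in introns of the transcript Mir133a-1hg and opposite to introns of Mib1. miR-206 (chr1:20679010-20679082) and miR-133b (chr1:20682769-20682887), both on the plus strand, are 3686 bases apart and overlap exons of the long noncoding RNA Gm28653, which RefSeq names Lincmd1. miR-208a (chr14:54949060-54949142, minus strand) lies in an intron of Myh6, the alpha myosin heavy chain of adult mouse heart, and miR-208b (chr14:54975700-54975776, minus strand) in an intron of Myh7, the beta chain, 26557 bases away. miR-499 (chr2:155622880-155622958, plus strand) lies in an intron of Myh7b.

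Clean reads per library numbered 12899427 to 19707803, and the miRNA reads among them 210212 to 918466. miRNA took 4.66%, 1.34% and 1.88% of clean reads in young replicates 1 to 3, 3.32%, 1.23% and 2.37% in old replicates 1 to 3, and 3.21%, 4.22% and 3.53% in the curcumin replicates. A value per clean read therefore moves with the miRNA share of the library, and each member is given on both scales: per clean read, as reads per 1000000 clean reads (RPM), and per miRNA read, as a percentage of miRNA reads or as reads per 1000000 miRNA reads (miRNA RPM). The libraries titled replicate 1 differed from replicates 2 and 3 of their groups: with group in the model, 130 of 498 features (26.1%) differed per clean read and 26 of 197 miRNAs (13.2%) per miRNA read (edgeR, adjusted p under 0.05). Each group holds 1 of them, and results are given with these 3 libraries numbered 1 and, where a call or direction changed, without them, which leaves 2 libraries a group. 1 of 4 tested muscle miRNAs was among these calls, miR-133a, lower by −0.48 on the log2 scale per miRNA read in the libraries numbered 1 (SE 0.135, edgeR adjusted p = 0.0251).

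miR-1a, which acts with miR-133 in muscle differentiation, was the most abundant of the 577 miRNAs, ahead of the endothelial miR-126a, with 1585862 reads over the 9 libraries. Of miRNA reads it made up 37.5%, 30.4% and 34.4% in young replicates 1 to 3, 34.9%, 29.4% and 34.3% in old replicates, and 34.96%, 41.8% and 41.2% in curcumin replicates. The highest shares were those of curcumin replicates 2 and 3, and the lowest were those of young and old replicates 2. Per clean read the young replicates had 17495, 4080 and 6479 RPM of miR-1a, the old ones 11580, 3613 and 8110, and the curcumin ones 11207, 17638 and 14531. On this scale young replicate 1 was above 2 of the 3 curcumin libraries, and the curcumin and old libraries overlapped. Together the 7 muscle miRNAs held 35.5% ± 3.28 of miRNA reads in young libraries, 34.1% ± 2.97 in old libraries and 40.5% ± 4.00 in those of curcumin-treated mice (SD, n = 3 here and below), and miR-1a was 94.8% to 97.4% of them. Its loci held almost equal counts, since a read matching both is divided in these files: over the 9 libraries they differed by at most 40 reads, and by at most 0.0367% of their sum.

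**Figure D1:**
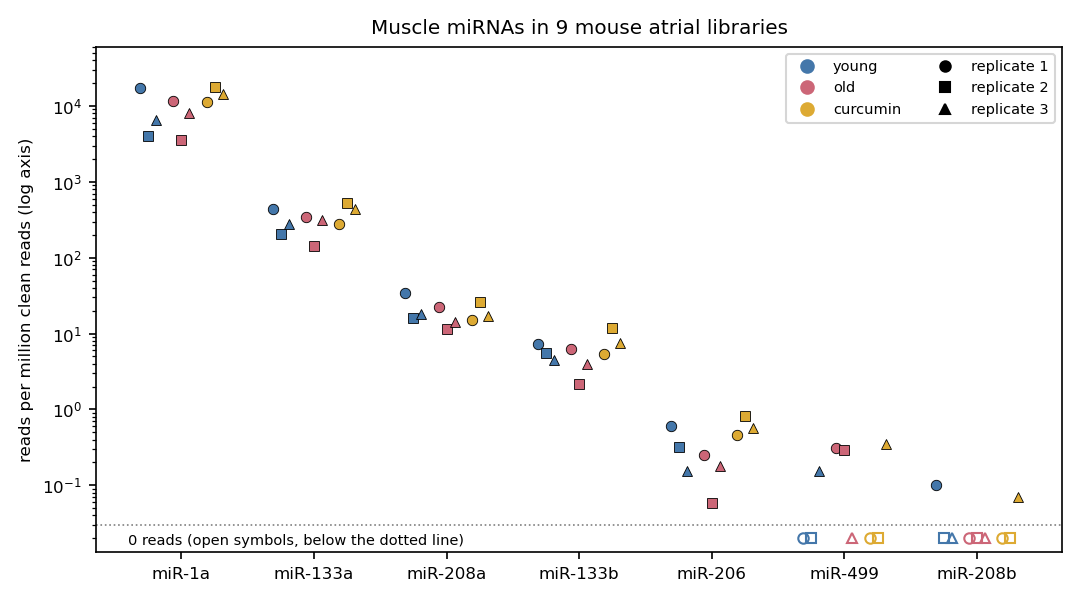
Reads per 1000000 clean reads (RPM, log axis) of the 7 muscle miRNAs in each of the 9 libraries, coloured by group and shaped by replicate number, with libraries at 0 reads as open symbols below the dotted line. miR-1a lies between 3613 and 17638, miR-133a between 142 and 521, and miR-499 and miR-208b are at 0 in 5 and 7 of the 9 libraries.

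**Figure D2:**
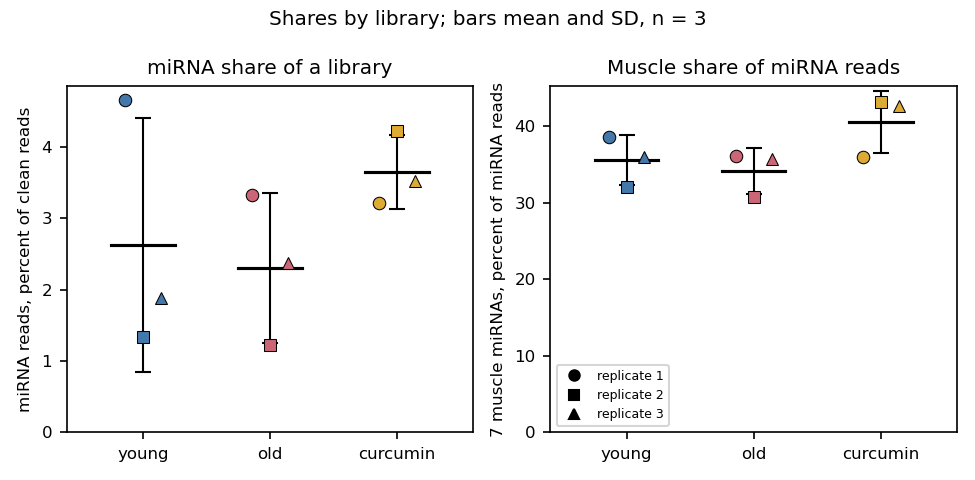
Left, miRNA reads as a percentage of clean reads, and right, the 7 muscle miRNAs as a percentage of miRNA reads, for each library (points) with the group mean and SD (bars, n = 3). The miRNA share of clean reads runs from 1.23% to 4.66%, while the muscle share of miRNA reads runs from 30.7% to 43.1%.

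miR-133a, which limits cardiomyocyte growth and division, ranked 14th of the miRNAs. It made up 0.931%, 1.51% and 1.47% of miRNA reads in young replicates 1 to 3, 1.04%, 1.16% and 1.34% in old replicates, and 0.879%, 1.23% and 1.26% in curcumin replicates. Replicate 1 was the lowest of each group and the groups overlapped. Per clean read there were 434, 203 and 277 RPM in the young replicates, 346, 142 and 317 in the old ones and 282, 521 and 443 in the curcumin ones. Here too the groups overlapped, and curcumin replicates 2 and 3 were the highest of all 9 libraries. The loci miR-133a-1 and miR-133a-2 differed by at most 32 reads, 0.604% of their sum.

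miR-208a, carried by the alpha myosin gene, ranked 64th with 2919 reads. Per miRNA read its level was 736, 1189 and 951 miRNA RPM in young replicates 1 to 3, 684, 934 and 601 in old replicates, and 476, 617 and 481 in curcumin replicates. All 3 curcumin libraries were below all 3 young libraries, and they overlapped the old ones through curcumin replicate 2. Per clean read the means were 22.7 ± 10.1 RPM in young, 16.1 ± 5.85 in old and 19.4 ± 5.80 in curcumin libraries, and all groups overlapped.

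miR-133b, which is made from the transcript of miR-206, ranked 94th. Per miRNA read there were 154, 417 and 235 miRNA RPM in young replicates 1 to 3, 190, 178 and 167 in old replicates, and 169, 279 and 212 in curcumin replicates. The old libraries lay close together (SD 11.3 around a mean of 179), and young replicate 2 was far above the others of its group. These values rest on 38 to 203.33 expected reads a library. Fractions of reads occurred in 6 of the 9 libraries, and in all 9 the counts of miR-133a and miR-133b added up to a whole number (within 0.02), so the low counts of miR-133b may hold parts of reads that also match miR-133a.

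miR-206, the skeletal muscle member of the miR-1 family, had 57 reads over the 9 libraries. There were 12, 5 and 2 reads in young replicates 1 to 3, 4, 1 and 3 in old replicates, and 8, 14 and 8 in curcumin replicates. Per clean read these are 0.609, 0.319 and 0.155 RPM in young, 0.248, 0.0576 and 0.179 in old, and 0.457, 0.810 and 0.560 in curcumin libraries. Each curcumin library was above each old library, as for 10.8% of the 498 features with enough reads to be tested, to which miR-206 does not belong. The counts were so low that the 95% Wilson interval of curcumin replicate 1 (0.232 to 0.902) overlapped that of old replicate 1 (0.0965 to 0.638). Fitted without a filter on low counts, miR-206 gave a log2 difference of 1.87 between curcumin-treated and old mice (SE 0.958, edgeR adjusted p = 0.766 over all features) per clean read and 1.25 (SE 1.10, adjusted p = 0.702) per miRNA read.

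miR-499, from the Myh7b gene, had 17 reads in 4 libraries: 2 in young replicate 3, 5 each in old replicates 1 and 2, and 5 in curcumin replicate 3. It was at 0 in the other 5 libraries, where 0 reads allow up to 0.152 to 0.192 RPM (3 reads of the total, counting error only). miR-208b, from the beta myosin gene, had 2 reads in young replicate 1 and 1 read in curcumin replicate 3, and was at 0 in 7 libraries, among them all 3 old ones. The 0 reads of old replicate 1 allow up to 0.186 RPM. With so few reads no difference between groups was detectable for miR-499 or miR-208b. The order of mean levels per clean read was miR-1a, miR-133a, miR-208a, miR-133b, miR-206, miR-499 and miR-208b. The lowest library of each of the first 4 lay above the highest library of the next, except that miR-208a (lowest 11.5) and miR-133b (highest 11.8) overlapped. miR-206, miR-499 and miR-208b overlapped each other.

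The closely related names miR-1b, annotated on the strand opposite miR-1a-2, and miR-133c had 4 reads and 1 read, all in young replicate 1. All reads of the 9 precursors matched the genome. Of the cardiac markers, miR-1a, miR-133a and miR-208a were present in every library, while the other cardiac markers, miR-208b and miR-499, were at 0 in 7 and 5 libraries. In bulk tissue fewer cells of a type and less RNA per cell cannot be told apart.

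Differences between groups were tested by edgeR's quasi-likelihood test over all features with enough reads, 498 per clean read and 197 miRNAs per miRNA read, with Benjamini-Hochberg adjustment over all of them. 4 of the 7 muscle miRNAs passed the filter on low counts (miR-1a, miR-133a, miR-133b and miR-208a), and miR-206, miR-208b and miR-499 did not. The 3 comparisons share libraries, since curcumin was set against both other groups and old against both, so their values are not independent of each other.

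**Figure D3:**
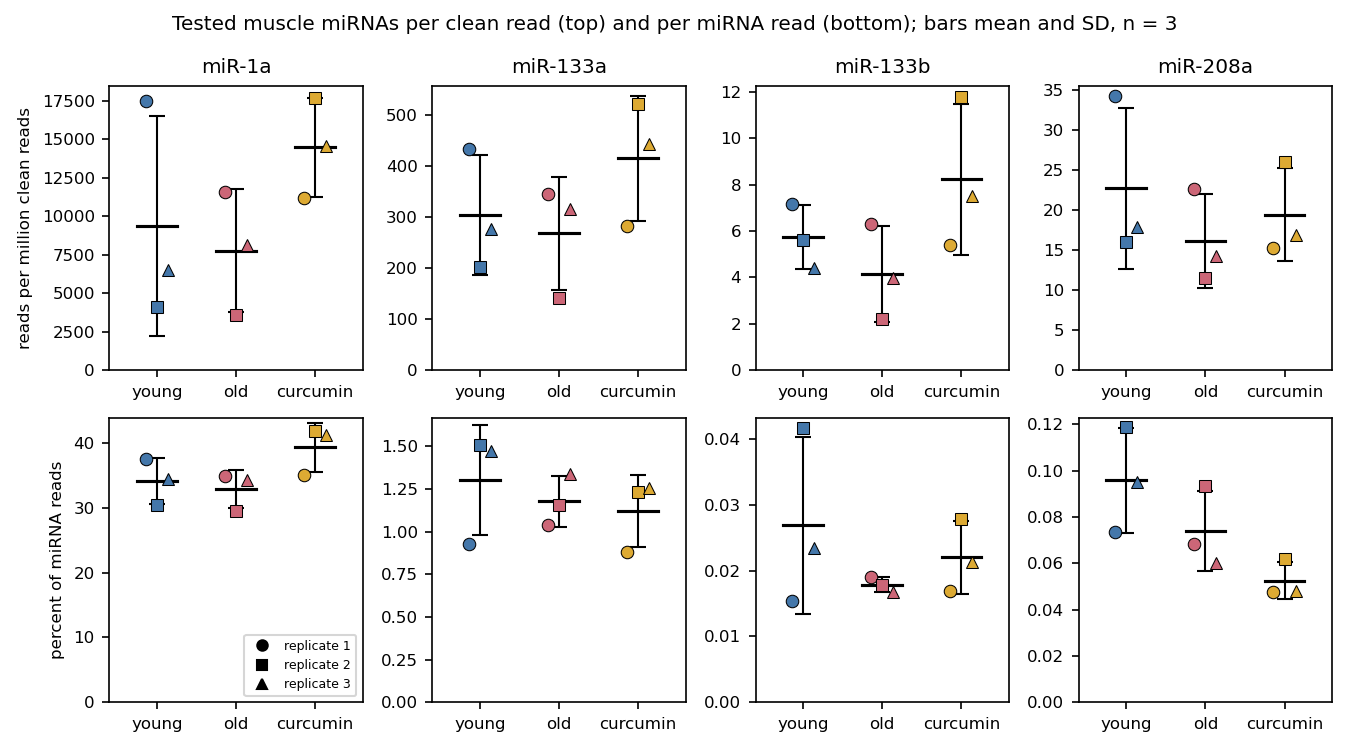
The 4 tested muscle miRNAs in each library (points shaped by replicate number) with the group mean and SD (bars, n = 3), as reads per 1000000 clean reads in the top row and as a percentage of miRNA reads in the bottom row. Per miRNA read the 3 curcumin libraries of miR-1a (34.96% to 41.8%) are above the 3 old ones (29.4% to 34.9%), and those of miR-208a (0.0476% to 0.0617%) are below the 3 young ones (0.0736% to 0.119%).

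Age was addressed by setting old against young mice. The fitted values of the 4 tested muscle miRNAs were lower in old mice on both scales, and 0 of 4 passed the test. Per clean read 0 of 4 were called (edgeR, adjusted p under 0.05), as were 0 of 498 features (0%), of which 4 (0.803%) had an unadjusted p under 0.05, and limma-voom and DESeq2 also called 0. The log2 differences, old minus young, were −0.27 for miR-1a (SE 0.544), −0.18 for miR-133a (SE 0.417), −0.47 for miR-133b (SE 0.508) and −0.50 for miR-208a (SE 0.445), each with an edgeR adjusted p of 0.996. Of all 187 miRNAs tested on this scale 137 (73.3%) were lower in old mice, with a median of −0.23, so the direction of the muscle miRNAs was that of most miRNAs. Without young replicate 1, which had the largest miRNA share, miR-1a and miR-133a turned to 0.56 and 0.16, and without old replicate 2 they turned to 0.07 and 0.12. Without the libraries numbered 1 miR-1a was at 0.15 and the other 3 kept their sign.

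Per miRNA read 0 of 4 muscle miRNAs and 0 of 197 miRNAs (0%) were called between old and young mice, 3 miRNAs (1.52%) and 0 of these 4 had an unadjusted p under 0.05, and limma-voom and DESeq2 called 0. Of the 197 miRNAs 57.9% were lower in old mice, with a median of −0.07. The differences were −0.05 for miR-1a (SE 0.119), −0.14 for miR-133a (SE 0.222), −0.57 for miR-133b (SE 0.402) and −0.37 for miR-208a (SE 0.285), at an edgeR adjusted p of 0.989 each. The groups overlapped for all 4. Leaving out young replicate 1 or old replicate 2 moved miR-1a to 0.02 in either case. Over the fits that leave out 1 library, miR-133b ran from −0.87 to −0.10, miR-208a from −0.57 to −0.19 and miR-133a from −0.34 to −0.03.

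Curcumin was addressed by setting curcumin-treated against untreated mice of the same age. Per clean read the 4 tested muscle miRNAs were fitted higher in curcumin-treated mice, with 0 of 4 called by edgeR. 0 of 498 features (0%) were called, and 21 features (4.22%) but 0 of these 4 had an unadjusted p under 0.05. The log2 difference was 0.90 for miR-1a (SE 0.548, 1.86-fold), 0.63 for miR-133a (SE 0.419), 0.98 for miR-133b (SE 0.510) and 0.27 for miR-208a (SE 0.444), with edgeR adjusted p of 0.845 for the first 3 and 0.851 for miR-208a. Each was higher in the curcumin library of 2 of the 3 replicate numbers and lower in replicate 1. Leaving out 1 library at a time, miR-1a ran from 0.55 to 1.30, miR-133a from 0.33 to 0.86 and miR-133b from 0.64 to 1.42. Of all 187 miRNAs 158 (84.5%) were higher, with a median of 0.46. DESeq2 and limma-voom called 0 features.

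Without the 3 libraries numbered 1, miR-1a and miR-133b rose in curcumin-treated against old mice per clean read: miR-1a by 1.46 (SE 0.346, edgeR adjusted p = 0.0347) and miR-133b by 1.65 (SE 0.455, adjusted p = 0.0489) on the log2 scale. Over all the alternatives tried for this comparison these adjusted p ran from 0.0347 to 0.993 and from 0.0489 to 0.993, and no other alternative called either miRNA. In that fit 27 of 500 features (5.4%) were called higher, among them 22 of 190 miRNAs (11.6%), and 11 features (2.2%) lower. miR-133a stood at 1.07 (adjusted p = 0.0917) and miR-208a at 0.74 (adjusted p = 0.184). A term for the libraries numbered 1, which keeps all 9, called 0 features per clean read and gave miR-1a 1.08 (SE 0.424, edgeR adjusted p = 0.322).

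Per miRNA read miR-1a was 1.20-fold higher in curcumin-treated than in old mice, 39.3% ± 3.78 against 32.9% ± 2.98 of miRNA reads. It was higher in 3 of 3 replicate numbers, with a log2 difference of 0.26 (SE 0.119) and an edgeR adjusted p of 0.505, which did not pass. The groups did not overlap for 1 of the 4 tested muscle miRNAs, miR-1a, as for 17.8% of the 197 miRNAs in either direction and 4.06% in the higher direction. The gap was small: the lowest curcumin library, replicate 1, and the highest old library, also replicate 1, had Wilson intervals that overlapped (34.84% to 35.09% and 34.76% to 35.01%). 0 of 4 muscle miRNAs were called by edgeR, as were 0 of 197 miRNAs (0%), with 17 of 197 (8.63%) at an unadjusted p under 0.05, and DESeq2 and limma-voom called 0. miR-133a differed by −0.07 (SE 0.222), miR-133b by 0.30 (SE 0.397) and miR-208a by −0.49 (SE 0.284), with edgeR adjusted p of 0.916, 0.764 and 0.576. The median of all miRNAs was −0.27 on this scale, with 136 of 197 (69%) lower.

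Because miR-1a makes up so much of the miRNA reads, it also weighs on the total that all members are divided by. With the miRNA reads outside miR-1a as the total, an alternative chosen after the values were seen, the difference between curcumin-treated and old mice was 0.41 for miR-1a (SE 0.163, edgeR adjusted p = 0.509), 0.09 for miR-133a, 0.46 for miR-133b and −0.33 for miR-208a. TMM scaling moved the median of all miRNAs from −0.27 to −0.04 and gave miR-1a 0.46, miR-133a 0.14, miR-133b 0.51 and miR-208a −0.27. Among these scalings of miRNA reads the sign of miR-133a thus changed, while those of miR-1a, miR-133b and miR-208a did not. Per clean read miR-208a had the other sign (0.27). Without the libraries numbered 1 miR-1a differed by 0.38 (SE 0.114, edgeR adjusted p = 0.0502, the lowest over its alternatives, which reach 0.946), beside 16 of 185 miRNAs called (8.65%).

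**Figure D4:**
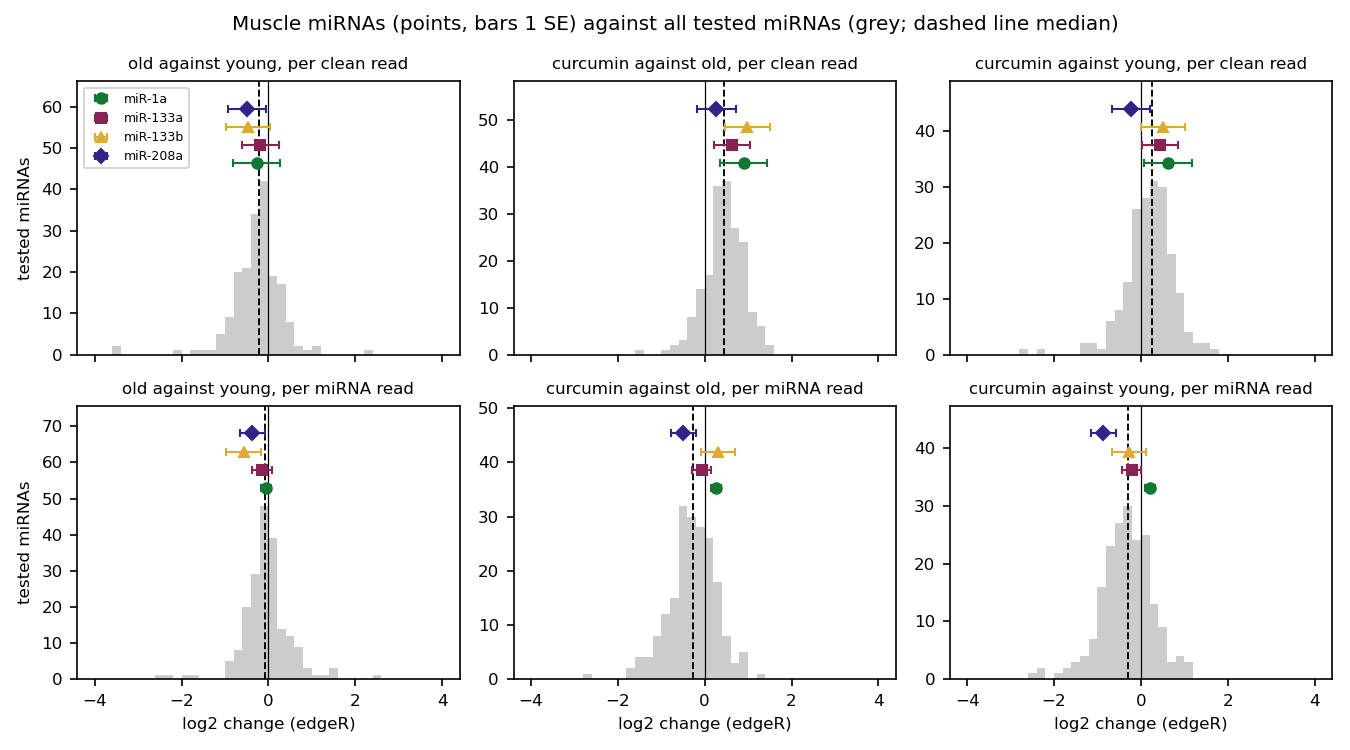
Log2 change of the 4 tested muscle miRNAs (points, bars 1 SE from edgeR) in the 3 comparisons, per clean read (top) and per miRNA read (bottom), above a histogram of all tested miRNAs (grey, count axis, dashed line the median). In curcumin-treated against old mice miR-1a (0.26) and miR-208a (−0.49) lie on opposite sides of the median of −0.27 per miRNA read.

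The smooth muscle markers miR-143 and miR-145a, 2 of 2 measured, were taken as a sum. Their summed level ran from 17538 to 18343 miRNA RPM in curcumin libraries, from 14146 to 16647 in old ones and from 14454 to 15810 in young ones. Each curcumin library was above each old library in this sum, as for miR-1a and for 4.06% of the 197 miRNAs taken singly. Within the young group these markers did not follow miR-1a: replicate 2 had their highest level and the lowest share of miR-1a. Within the old group both were highest in replicate 1 and lowest in replicate 2, and within the curcumin group both were highest in replicate 2. The endothelial marker miR-126a was lower in curcumin replicates 2 and 3 (214741 and 218896 miRNA RPM), where miR-1a was highest, than in curcumin replicate 1 (281663). In young libraries miR-126a was highest in replicate 2 (238274), where miR-1a was lowest. In old libraries both were lowest in replicate 2 (miR-126a 247585, beside 256631 and 268485 in replicates 1 and 3). On this scale miR-1a is part of the total that miR-126a is divided by. Per clean read miR-126a was at 9029, 9066 and 7720 RPM in curcumin replicates 1 to 3, so replicate 2 was not below replicate 1. The fibroblast markers, 4 of 4 measured, overlapped between groups (9234 to 11232 in young, 8006 to 12318 in old and 10578 to 13045 in curcumin libraries). The part of these cell types in the differences of the muscle miRNAs was not tested.

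Curcumin-treated mice of 18 months were also set against young mice of 5 months. miR-208a was 0.55-fold the young level per miRNA read, 524 ± 80.1 against 959 ± 227 miRNA RPM, lower in 3 of 3 replicate numbers and with no overlap between the groups. Its log2 difference was −0.87 (SE 0.286) with an unadjusted p of 0.0117 and an edgeR adjusted p of 0.246, which did not pass. No overlap in the lower direction was found for 9.64% of the 197 miRNAs, and 26 of them (13.2%) had an unadjusted p under 0.05. miR-1a differed by 0.21 (SE 0.119, adjusted p = 0.394), miR-133a by −0.21 (SE 0.222, adjusted p = 0.665) and miR-133b by −0.27 (SE 0.396, adjusted p = 0.769). The median of all miRNAs was −0.29, with 140 of 197 (71.1%) lower, which places miR-208a below the median and miR-1a above it. TMM, RLE and DESeq2 scaling turned miR-133a to between 0.03 and 0.06, and RLE and DESeq2 turned miR-133b to 0.03 and 0.04.

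edgeR called 0 of 4 muscle miRNAs and 0 of 197 miRNAs (0%) in this comparison. Without the libraries numbered 1, a subset chosen with earlier results known, miR-208a was called lower by 0.96 on the log2 scale (SE 0.286, edgeR adjusted p = 0.0392). miR-1a was called higher by 0.36 (SE 0.114, adjusted p = 0.0458). In that fit, on 2 libraries a group, 24 of 185 miRNAs were called lower (13%) and 8 higher (4.32%). Leaving out young replicate 1 alone gave 24 of 202 miRNAs lower (11.9%) and 5 higher (2.48%), with miR-208a at −1.03 (SE 0.254, adjusted p = 0.0289). Over all alternatives the adjusted p of miR-208a ran from 0.0289 to 0.595 and its difference from −1.03 to −0.60, and that of miR-1a from 0.0458 to 0.765. Blocking on replicate numbers, edgeR called 1 of 197 miRNAs, miR-148a, and DESeq2 called 1, miR-541. limma-voom called 0.

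Per clean read 0 of 4 muscle miRNAs passed in curcumin-treated against young mice (edgeR), nor did any of the 498 features (0%), 20 of which (4.02%) had an unadjusted p under 0.05. The differences were 0.63 for miR-1a (SE 0.546), 0.45 for miR-133a (SE 0.418), 0.52 for miR-133b (SE 0.505) and −0.23 for miR-208a (SE 0.444), beside a median of 0.26 over 187 miRNAs, 67.9% of which were higher. Leaving out 1 library at a time, miR-1a ran from 0.27 to 1.45, miR-133a from 0.22 to 0.79 and miR-133b from 0.17 to 0.75. miR-208a was the muscle miRNA with a lower fitted value, and it turned to 0.35 without the libraries numbered 1 and to 0.20 without young replicate 1. Without the libraries numbered 1 miR-1a was called higher by 1.61 (SE 0.348, edgeR adjusted p = 0.0169, against up to 0.999 in the other alternatives), beside 28 of 500 features called higher (5.6%) and 5 lower (1%). DESeq2 called 1 feature, the 5′ end of nuclear tRNA-His-GTG, and limma-voom 0.

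The red blood cell markers, like miR-208a, were lower in curcumin than in young libraries, a direction shared by 71.1% of the 197 miRNAs. Their summed level, 4 of 4 measured, ran from 2835 to 6353 miRNA RPM in young libraries, from 1222 to 3461 in old ones and from 766 to 1422 in curcumin ones. Within the young group they did not follow miR-208a: they were highest in replicate 1, where miR-208a was lowest, and lowest in replicate 2, where it was highest. In the other groups, old replicate 2 was the highest old library for both, and curcumin replicate 1 the lowest curcumin library for both. The lowest old library and the highest curcumin library were not the same for both. Among these markers, miR-486a and miR-486b also belong to the list of other heart or muscle miRNAs given below. The leukocyte markers reached 7908 in young replicate 1 and 2391 to 3811 in the other 8 libraries, with 4 of 5 names measured. miR-142a, at a mean of 2006 miRNA RPM, is included, and the alternative name miR-142 has no reads in these files. The part of blood in these differences was not tested.

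Ratios within a library do not depend on the read total. miR-133a, which shares transcripts with miR-1a, stood at 24.8, 49.6 and 42.8 reads per 1000 reads of miR-1a in young replicates 1 to 3, 29.8, 39.3 and 39.1 in old replicates, and 25.1, 29.5 and 30.5 in curcumin replicates. Replicate 1 was the lowest in each group, and the groups overlapped. The difference in mean log2 ratio was −0.07 for old against young, −0.34 for curcumin against old and −0.41 for curcumin against young, with exact two-sided permutation p of 0.8, 0.2 and 0.4 (0.8, 0.6 and 0.6 adjusted over these 3 tests). With 3 libraries against 3 this test cannot give a p under 0.1. Curcumin was lower than old in 3 of 3 replicate numbers. The ratios miR-133b to miR-206, miR-208b to miR-208a and miR-206 to miR-1a were not computed, because 1 of the miRNAs had fewer than 10 reads in some library.

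The ratio of miR-208a to miR-1a was looked at after the values were seen and is a description with no test. It was 1.96, 3.91 and 2.76 reads per 1000 reads of miR-1a in young replicates 1 to 3, 1.96, 3.17 and 1.75 in old replicates, and 1.36, 1.48 and 1.17 in curcumin replicates. The 3 curcumin libraries were below all 6 others, and below their own number in the other groups by between −0.53 and −1.41 on the log2 scale. The mean log2 ratio differed by −0.74 for curcumin against old and −1.06 for curcumin against young, and by −0.85 and −1.33 without the libraries numbered 1. Most miRNAs had a lower ratio to miR-1a as well: of the 142 miRNAs with at least 10 reads in every library, 86.6% had a lower mean ratio in curcumin than in old mice, and 31.7% did not overlap. Against young mice these shares were 87.3% and 14.1%, and 7.75% of the 142 had a lower difference than miR-208a, beside 23.2% in curcumin against old mice.

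**Figure D5:**
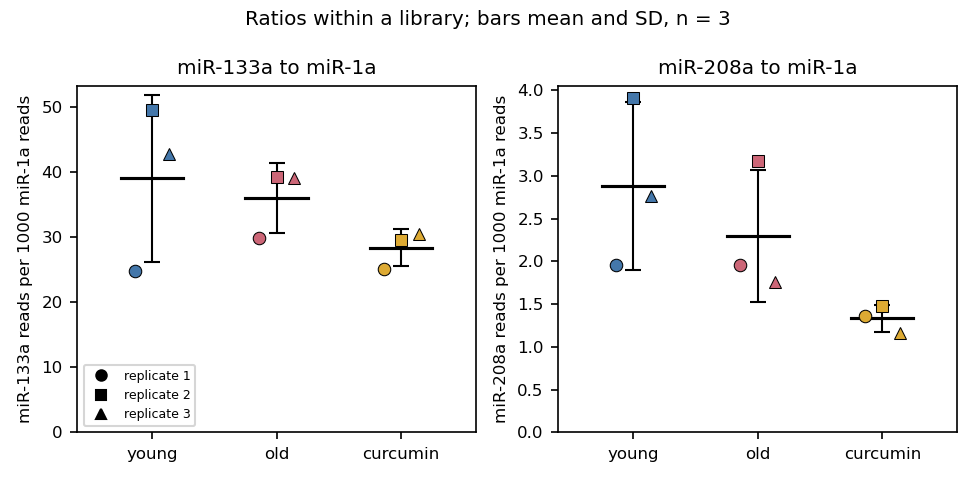
Reads of miR-133a (left) and miR-208a (right) per 1000 reads of miR-1a in each library (points shaped by replicate number), with the group mean and SD (bars, n = 3). The miR-208a ratio lies between 1.17 and 1.48 in curcumin libraries and between 1.75 and 3.91 in the 6 others.

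The miRNAs whose profile over the 9 libraries differed least in size from that of miR-1a were not muscle miRNAs. Likeness was the root mean square difference of the centred log2 miRNA RPM (plus 1), over 196 miRNAs with a median of 0.59. The smallest differences were those of miR-199a (0.16), miR-199b (0.17), miR-27b (0.17), miR-152 (0.18) and miR-30a (0.18). miR-133a came 35th at 0.33, miR-133b 72nd at 0.47 and miR-208a 91st at 0.55. This measure is also small for miRNAs that vary little. miR-199a held 0.562%, 0.572% and 0.563% of miRNA reads on average in young, old and curcumin libraries, and miR-199b 0.256%, 0.256% and 0.257%, without the higher curcumin level of miR-1a. miR-27b (0.601%, 0.653% and 0.776%), miR-152 and miR-30a had their highest mean in curcumin libraries. The points share libraries and depth, and abundant miRNAs have less counting noise, so this is a description.

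Another 29 miRNAs linked to heart or muscle in general knowledge, among them the miR-29 family, which limits collagen genes, and miR-26a and the miR-30 family, were given as a list. 27 of them were tested per clean read and 28 per miRNA read, and 0 were called by edgeR in any comparison. Per clean read 4 of 27 were higher in old than in young mice (median −0.23, as over all miRNAs), and 25 of 27 were higher in curcumin-treated than in old mice (median 0.59, beside 0.46 over all miRNAs). Per miRNA read 13 of 28 were higher in curcumin-treated than in old mice (median −0.05, beside −0.27). The most abundant, miR-26a, miR-29a, miR-30a and miR-30c, differed by −0.07 (SE 0.157), 0.29 (SE 0.273), 0.10 (SE 0.160) and −0.15 (SE 0.169) in that comparison, with edgeR adjusted p of 0.681 to 0.859.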

How the data were processed

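The deposited files give expected counts of clean reads per annotation, not normalized, in which a read with several matches is divided, judging from the fractional values. cutadapt 2.5 and the build mm10 are named per the submitters' processing notes. Which program annotated the reads, and whether molecular identifiers were counted, is not given in the sources used here. Genome-matched and unmatched reads were summed, absent entries were counted as 0, loci of 1 miRNA were summed, and expected counts were rounded. edgeR 4.0.16 in R 4.3.3 (robust quasi-likelihood, filterByExpr, 9 libraries, group as the only term) was run with clean reads, or miRNA reads for miRNAs alone, as library totals without further scaling. Features were called at an adjusted p under 0.05. The fits were also run on simulated counts with a common spread for all features and no difference by replicate number. Those runs therefore do not cover the difference of the libraries numbered 1. The common biological coefficient of variation was 0.496 per clean read and 0.378 per miRNA read. Wilson intervals (95%) hold the counting error of 1 library alone and not the spread between libraries. They may be too narrow, because several reads can stem from 1 molecule.

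All 7 muscle miRNAs, the 5 miRNAs most like miR-1a and up to 4 abundant members of the other list are named. The members, lists and the contrast of libraries numbered 1 were chosen with earlier results of these data known. Alternatives were TMM and RLE scaling, DESeq2 1.42.0, limma-voom (limma 3.58.1), other filters, subsets of libraries or reads, loci apart, miR-133a and miR-133b summed, and the replicate number as a block. Libraries with the same number deviated together (every correlation over 0.1) in old and young per clean read (0.28 to 0.80) and in curcumin and young on both scales (0.21 to 0.35 and 0.12 to 0.30), taken from the data and the numbers in the titles. Curcumin and old libraries did so in part: 0.30, −0.06 and 0.37 for replicate numbers 1 to 3 per clean read, and 0.28, 0.03 and 0.06 per miRNA read. For old and young libraries per miRNA read the values were 0.58, 0.41 and 0.05.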

Additional observations from a re-analysis of the deposited data

How the results depend on the processing

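Between 22 and 24 alternatives were run for each muscle miRNA, scale and comparison. Without the 3 libraries numbered 1, edgeR called 38 features in curcumin against old and 33 in curcumin against young per clean read, and 16 and 32 miRNAs per miRNA read. miR-1a (1.46 and 1.61) and miR-133b (1.65, curcumin against old) were then called per clean read, and miR-1a (0.36) and miR-208a (−0.96) per miRNA read in curcumin against young. The same fit turned miR-1a to 0.15 in old against young and miR-208a to 0.35 in curcumin against young, both per clean read. A term for these libraries called 3 miRNAs in curcumin against old and 5 in curcumin against young per miRNA read, and no filter called 3 and 5. DESeq2 called 1 feature on each scale and the replicate block 1 miRNA (per miRNA read) in curcumin against young. The replicate block changed no other call.

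In curcumin against old per miRNA read miR-133a turned to 0.14 (TMM), 0.17 (RLE), 0.17 (DESeq2) and 0.088 (miRNA reads outside miR-1a as the total), and miR-133a and miR-133b summed gave −0.064 in place of the 0.30 of miR-133b. In curcumin against young miR-133a turned to 0.0283 (TMM), 0.0572 (RLE) and 0.0574 (DESeq2), and miR-133b to 0.0295 (RLE) and 0.0372 (DESeq2). TMM, RLE and DESeq2 moved the median of all miRNAs from −0.27 to between −0.04 and −0.02 in curcumin against old, and from −0.29 to between −0.11 and −0.09 in curcumin against young. The total outside miR-1a moved it to −0.11 and −0.18. Per clean read TMM, RLE and DESeq2 moved that of all features from 0.31 to between 0.07 and 0.12 and from 0.18 to between −0.03 and 0.04.

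Leaving out 1 library at a time, old against young per clean read ran from −0.67 to 0.56 for miR-1a (above 0 without young replicate 1 or old replicate 2), from −0.41 to 0.16 for miR-133a (likewise), from −0.90 to −0.16 for miR-133b and from −0.82 to −0.07 for miR-208a. Curcumin against old ran from −0.0028 to 0.60 for miR-208a (below 0 without curcumin replicate 2), and curcumin against young from −0.50 to 0.20 (above 0 without young replicate 1). Per miRNA read, old against young ran from −0.13 to 0.0208 for miR-1a (above 0 without young replicate 1 or old replicate 2), curcumin against old from −0.16 to 0.0785 for miR-133a (above 0 without old replicate 3 or curcumin replicate 1), from 0.10 to 0.46 for miR-133b and from −0.63 to −0.29 for miR-208a, and curcumin against young from −0.41 to −0.07 for miR-133a, from 0.13 to 0.28 for miR-1a, from −0.56 to 0.20 for miR-133b (above 0 without young replicate 2) and from −1.03 to −0.68 for miR-208a, with 0 to 29 miRNAs called (29 without young replicate 1). The log2 ratio of miR-133a to miR-1a in old against young ran from −0.37 to 0.14 (above 0 without young replicate 2, young replicate 3 or old replicate 1). The cause of these shifts was not tested. Depth limits miR-206, miR-208b and miR-499, with at most 14 reads in a library.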
